A study of Mus musculus with 15 samples.

Results

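The transcriptome and the N6-methyladenosine (m6A) map of MPC5 cells given a virus against METTL3 were compared with those of untreated MPC5 cells. MPC5 is an immortalised mouse podocyte line, a single clone; podocytes are the epithelial cells that wrap the filtering capillaries of the kidney. The control cells grew in standard medium and received no virus, not even an empty one, so the virus and its shRNA cannot be told apart. The second group carried the sh-METTL3 virus in the same medium. Each of these groups has 2 pull-downs with an m6A antibody, 2 inputs, and 1 further RNA library of no stated kind, which makes 10 of the 15 samples of the series. The other 5 were cells with the same virus that were then kept for 72 hours with added glucose (25 µmol/L as labelled, a unit that no value here checks); their RNA library is called the glucose library and is given only side by side. It shares the control with the main comparison. All samples carry 1 batch label. Members were all genes with a mean of at least 1 FPKM over the 3 RNA libraries, 11591 of the 25012 genes of the table, and the peaks of the deposited m6A lists, 22498 in the control and 24626 in the sh-METTL3 list.

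m6A is laid on messenger RNA as it is made, by a complex in which METTL3 is the catalytic subunit, METTL14 its partner, WTAP and VIRMA the scaffold, and RBM15 or RBM15B the subunits that bring it to RNA. The mark is most common near stop codons and in 3' untranslated regions. Reader proteins of the YTH family bind it, and YTHDF2 hands marked messengers to the CCR4-NOT deadenylase, so the mark is best known for shortening the life of RNA.

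Mettl3 itself was not lower. It had 2.34, 2.42 and 2.49 FPKM in the control, sh-METTL3-labelled and glucose libraries (the order used from here on), and its count share in the library labelled sh-METTL3 was 1.05 times the control's (95% exact interval 0.963 to 1.15). FPKM is a read count scaled to transcript length and library size. Intervals set 1 library's counts against another's. They cover counting error only, as PCR copies of a molecule count as separate reads. Because the targeted RNA did not differ, the library is called by its label throughout. With 1 RNA library per condition there was no spread between replicates, no test was possible, and "higher" and "lower" refer to these 2 libraries, not to the conditions.

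The cell label was checked against markers. Of 10 podocyte markers 8 were in the table, and their summed level was 27.9, 76.9 and 57.1 FPKM. Nephrin (Nphs1), the slit diaphragm protein that defines podocytes, was low at 3.35, 1.37 and 1.85 FPKM, and the podocyte regulator Wt1 had 0.654, 0.0423 and 0.245 FPKM. Tubular markers summed to 59.2, 172 and 88.1 FPKM, led by the kidney cadherin Cdh16 at 41.6, 87.1 and 46.3 FPKM. RNA of tubular markers was thus present beside that of podocyte markers in every library. Endothelial markers were near 0, with Pecam1 at 8, 0 and 15 counts. Mesangial markers summed to 2.07, 4.92 and 4.55 FPKM and leukocyte markers to 3.03, 5.91 and 6.23 FPKM, while Ptprc, carried by all leukocytes, had 0, 7 and 0 counts. From the control to the library labelled sh-METTL3 a single gene carried each difference. These were Pdgfrb (0.554, 4.01 and 2.12 FPKM) for mesangial and Csf1r (0.442, 4.03 and 1.01 FPKM) for leukocyte markers. Des had 1.09, 0.412 and 1.48 FPKM and Cd68 2.59, 1.88 and 5.22 FPKM, so other genes added to the sums of the glucose library. In the longer list of mesangial and smooth muscle genes 3 of 5 tested were at least 2-fold lower, with a median log2 ratio of -1.05. In that of tubular genes 4 of 5 were at least 2-fold higher, with a median of 1.33. The FPKM filter left those 5 from 11 mesangial and smooth muscle genes and 5 from 17 tubular genes. Without the filter the medians were -0.02 and 0.01, so both differences rest on the few genes that passed. Bulk RNA cannot tell a mixed cell makeup from cells that carry markers of several types. The part of a mixed cell makeup in the other results was not tested, and in bulk RNA fewer cells of a type cannot be told apart from less RNA per cell.

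Each gene was given a log2 ratio of (FPKM + 1), library labelled sh-METTL3 over control, minus the median gene's ratio of 0.10; at least 1 in either direction was counted as higher or lower. On this scale 1061 genes (9.15%) counted as higher and 1143 (9.86%) as lower. The 1 added to FPKM shrinks the ratios of weakly expressed genes. Total counts were close, at 54282720 and 53655982. Higher genes made up 48.1% of the calls, against 58.8% without subtraction of the median and 58.5% after centring within 10 equal bins of gene length. Gene length ran with the ratio: in the bin of shortest genes 3.45% were higher and 33.8% lower, and in that of the longest 17.6% were higher and 0.78% lower. Ribosomal RNA differed as well: the genes named CT010467, the larger annotated as ribosomal RNA, took 2.31%, 0.0857% and 0.0946% of counts, and mitochondrial mt-Rnr1 had 570, 76.5 and 90.7 FPKM. What these shifts contributed to any gene group was not tested, and list medians after centring within length bins are given beside the groups of short genes.

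**Figure D1:**
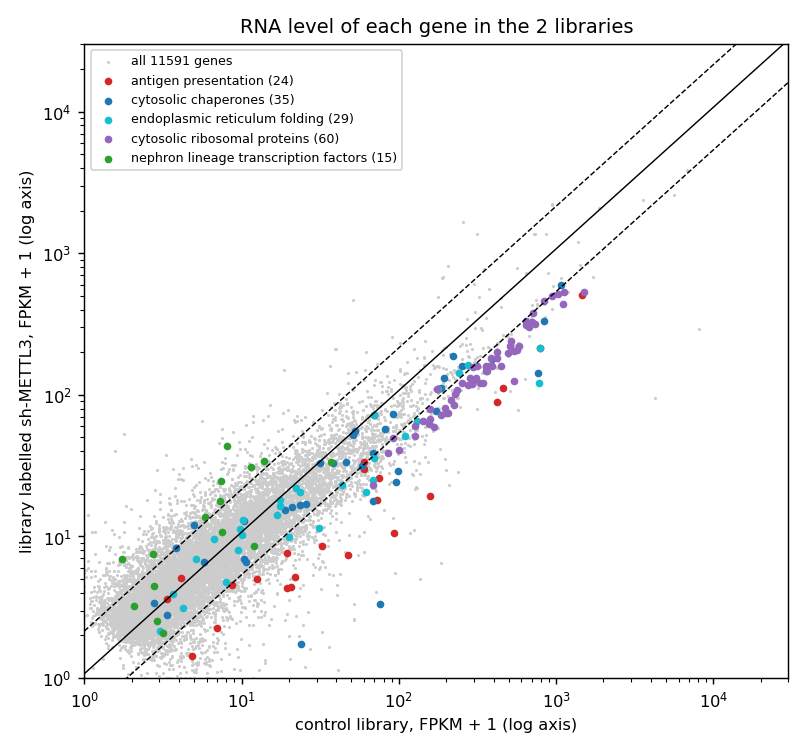
RNA level of 11591 genes in the control library (x axis, FPKM + 1, log scale) against the library labelled sh-METTL3 (y axis, same scale); the solid line is the median ratio, the dashed lines are 2-fold on either side, and 5 gene lists are coloured. Antigen presentation and ribosomal protein genes lie mostly below the lower dashed line, nephron transcription factors above the solid line.

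Of the 12 measured genes of the m6A writer complexes, 1 was higher, 1 was lower and 10 were between. Both were RNA-targeting subunits and they went opposite ways. Rbm15 had 9.05, 3.45 and 3.06 FPKM, a log2 ratio of -1.28, and Rbm15b, its paralogue, had 2.77, 8.65 and 6.19 FPKM, a log2 ratio of 1.25. The core subunits stood close to the median gene, with log2 ratios of -0.10 for Mettl14 and 0.01 for Wtap. The scaffold Virma (0.92), the E3 ligase Cbll1 (0.76) and the zinc finger subunit Zc3h13 (0.60) lay above it but within 2-fold. The ribosomal RNA methyltransferase Mettl5 was at -0.73, and Pcif1, which marks the cap-adjacent adenosine, at 0.38. Mettl16 and Zcchc4, which act on single RNA species, were at -0.25 and -0.06.

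Among 17 m6A readers and erasers 2 (11.8%, near the 9.15% of all tested genes) were higher and 0 lower. Fmr1, the fragile X protein, had 4.26, 10.5 and 4.63 FPKM, and Ythdc2, a helicase with a YTH domain, 0.367, 2.18 and 1.14 FPKM. Ythdf3 was at 8.91, 18.8 and 8.94 FPKM, a log2 ratio of 0.90. At the other end lay Igf2bp1, which protects marked messengers, at -0.66. Of 39 deadenylation and RNA decay genes 4 were higher and 0 lower, with a list median of 0.24 that became -0.02 after centring by length. The 10.3% higher is near the 9.15% of all tested genes. They were Cnot6, a catalytic subunit of CCR4-NOT (3.92, 18.9 and 9.61 FPKM), Ddx6, a decapping helicase (6.38, 17.1 and 12.9 FPKM), Xrn1, the 5' to 3' exonuclease (0.553, 2.61 and 1.52 FPKM), and Btg2, which recruits the deadenylase and is also an early response gene (9.67, 60.5 and 15.7 FPKM). All 4 were highest in the library labelled sh-METTL3. The count-share ratio of Cnot6 was 4.90 (interval 4.68 to 5.14).

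**Figure D2:**
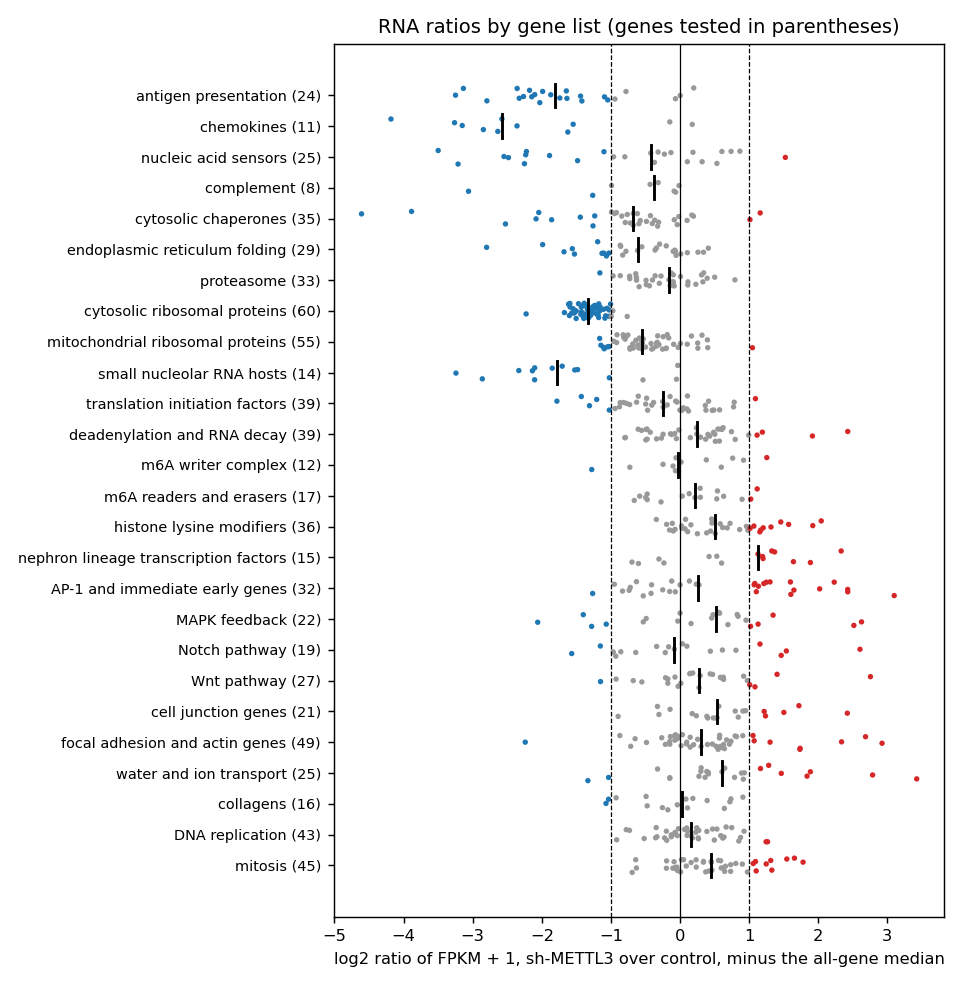
Log2 RNA ratio of each tested gene (points; red at least 2-fold higher, blue at least 2-fold lower, grey between) in 26 gene lists, relative to the median gene, with the list median as a black bar; the x axis is the log2 ratio of FPKM + 1 and dashed lines mark 2-fold. Of the lists drawn, chemokines have the lowest median at -2.58 and nephron lineage transcription factors the highest at 1.13.

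Protein folding genes were lower more often than tested genes in general. Of 35 cytosolic and mitochondrial chaperone genes 9 were lower and 2 higher, with a median of -0.68, and of 29 folding genes of the endoplasmic reticulum (ER) 10 were lower and 0 higher, with a median of -0.61. Chaperones bind unfolded protein; the inducible ones are switched on by heat shock factor in the cytosol and by the unfolded protein response in the ER. The stress-inducible HSP70 gene Hspa1b had 74.5, 2.32 and 4.70 FPKM, and its neighbour Hspa1a 23.1, 0.748 and 1.56 FPKM. The 2 genes are near-identical copies, so the division of reads between them is uncertain. Their count-share ratios were 0.0317 (0.0291 to 0.0345) and 0.0332 (0.0285 to 0.0384).

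The other low chaperones were abundant. The small heat shock protein Hspb1 had 768, 142 and 219 FPKM, with a count-share ratio of 0.189 (interval 0.185 to 0.192). The HSP40 partner Dnajb1 had 94.4, 23.2 and 24 FPKM, and the nucleotide exchange factor Hsph1 had 67.9, 16.9 and 19.8 FPKM. In each the control was highest and the 2 virus libraries were close to each other. Constitutive Hspa8 was lower too, at 841, 331 and 418 FPKM, as was Hsp90aa1 at 390, 177 and 120 FPKM. The mitochondrial chaperonin pair Hspe1 (97.2, 28.1 and 38.3 FPKM) and Hspd1 (171, 76.1 and 92.6 FPKM) was lower together. The 2 higher members were co-chaperones of low level, Hspb8 (2.81, 7.24 and 6.86 FPKM) and Bag2 (4.003, 10.99 and 10.4 FPKM).

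In the ER the HSP70 chaperone Hspa5 (BiP) had 780, 120 and 186 FPKM, from 273550 and 42118 counts in the first 2 libraries, with a count-share ratio of 0.156 (interval 0.154 to 0.157). Calreticulin (Calr), a lectin chaperone of glycoproteins, had 786, 212 and 297 FPKM. The secreted stress factor Manf was at 60.4, 19.6 and 22.6 FPKM, the degradation component Herpud1 at 67.8, 24.1 and 39.5 FPKM, and the co-chaperone Sdf2l1 at 30.1, 10.6 and 12.7 FPKM. Both virus libraries were below the control for all 5. Xbp1, a transcription factor of the unfolded protein response, lay above the median gene at 0.41, and calnexin (Canx), the membrane-bound relative of calreticulin, at -0.07. List medians were -0.60 for the chaperones and -0.68 for the ER genes after centring by length, and -0.32 and -0.28 after quantile normalization.

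The promoters of these genes are shown because ER chaperones share a known regulatory sequence, the ER stress element. The letters searched on both strands were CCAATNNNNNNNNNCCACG (N is any base), in RefSeq promoters of build GRCm38.p6 that reach from 250 bases before to 50 bases after each transcription start. Of 7993 tested genes with such a promoter 12 (0.15%) held it, and of the 23 ER folding genes with a promoter 8 (34.8%) did, 4 of which were among the lower genes. The sequences printed are 60-base windows of those promoters, 5' to 3' on the gene's strand, with the element in capitals (reversed where it begins CGTGG).
Hspa5, chr2:34772000-34772059, plus strand: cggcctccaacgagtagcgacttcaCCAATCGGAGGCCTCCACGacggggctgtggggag
Calr, chr8:84847057-84847116, minus strand: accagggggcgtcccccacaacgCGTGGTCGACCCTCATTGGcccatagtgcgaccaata
Pdia6, chr12:17266469-17266528, plus strand: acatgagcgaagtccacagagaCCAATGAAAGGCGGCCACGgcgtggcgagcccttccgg
Creld2, chr15:88819496-88819555, plus strand: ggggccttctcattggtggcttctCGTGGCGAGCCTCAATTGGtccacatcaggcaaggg
Hsp90b1, chr10:86705515-86705574, minus strand: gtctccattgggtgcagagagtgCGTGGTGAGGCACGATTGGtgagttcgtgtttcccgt
Canx, chr11:50325784-50325843, minus strand: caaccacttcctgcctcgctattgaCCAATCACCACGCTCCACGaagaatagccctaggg
Dnajc3, chr14:118937802-118937861, plus strand: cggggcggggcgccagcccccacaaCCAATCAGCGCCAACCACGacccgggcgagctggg
Syvn1, chr19:6046506-6046565, plus strand: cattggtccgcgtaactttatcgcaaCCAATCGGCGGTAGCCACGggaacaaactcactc

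The first 4 genes were at least 2-fold lower, with log2 ratios of -2.80 for Hspa5, -1.99 for Calr, -1.10 for the disulfide isomerase Pdia6 and -1.06 for Creld2. The last 4 carried the same letters and lay within 2-fold, at -0.87 for Hsp90b1, -0.07 for Canx, -0.08 for the inhibitor Dnajc3 and -0.20 for the ubiquitin ligase Syvn1. The element was thus present both in lower members and in members within 2-fold. The heat shock element searched was GAANNTTCNNGAA on both strands. It was in 0.576% of the 7993 genes and in 5 of the 29 chaperone genes with a promoter (17.2%), 3 of them lower. Hspe1 and Hspd1 are divergent neighbours, and overlapping copies (capitals) lie in the promoter windows of both.
Hspe1, chr1:55088033-55088092, plus strand: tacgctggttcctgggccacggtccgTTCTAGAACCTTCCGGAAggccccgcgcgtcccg
A motif match describes the sequence and says nothing of binding.

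**Figure D3:**
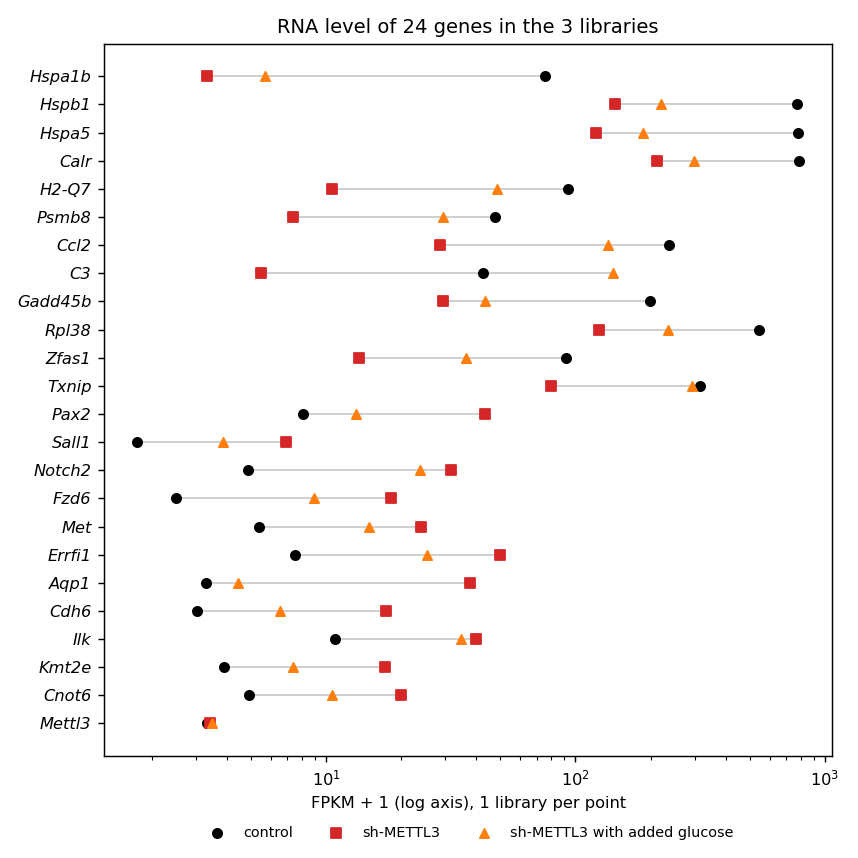
RNA level of 24 genes (rows) in the control (black circles), sh-METTL3-labelled (red squares) and glucose (orange triangles) libraries, 1 library per point, on a log axis of FPKM + 1. For chaperones such as Hspa1b both virus libraries lie far below the control, whereas for Txnip and C3 the glucose library is near or above it.

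Antigen presentation by class I molecules was lower almost throughout. Of 24 genes tested 19 were lower and 0 higher, and the median was -1.80 (-1.67 after centring within length bins). Class I molecules carry peptides cut by the immunoproteasome, pumped into the ER by TAP, to the cell surface with beta-2 microglobulin. The immunoproteasome subunit Psmb8 had 46.6, 6.37 and 28.6 FPKM, with a count-share ratio of 0.139 (interval 0.132 to 0.146), and its partner Psmb9 6.02, 1.26 and 6.197 FPKM. The peptide pump genes Tap1 (21.0, 4.21 and 16.5 FPKM) and Tap2 (18.4, 3.34 and 13.3 FPKM) were lower together. B2m, the light chain, had 1463, 504 and 830 FPKM.

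The classical heavy chains H2-K1 and H2-D1 had 459, 111 and 267 FPKM and 421, 87.4 and 265 FPKM. The nonclassical H2-Q7 was at 92.6, 9.57 and 47.3 FPKM and H2-Q6 at 158, 18.4 and 100 FPKM, although these genes are near-identical and their reads may be divided between copies. Here the glucose library lay between the other 2 in each case. In the standard proteasome, of 33 proteasome genes 1 was lower, Psmd8 at 121, 57.7 and 93.6 FPKM, and the median was -0.16. Nlrc5, the activator of class I genes, had 2.37, 2.62 and 6.89 FPKM and a log2 ratio of 0.00.

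The sensors and signals around this pathway were mixed. Of 25 nucleic acid sensor genes 10 were lower and 1 higher, with a median of -0.42. The lower ones included the Z-form sensor Zbp1 (8.80, 0.135 and 6.40 FPKM), Trim30a (13.1, 0.334 and 10.6 FPKM) and the oligoadenylate synthetases Oas1g (22.6, 3.33 and 18.8 FPKM) and Oas3 (30.7, 5.09 and 28.4 FPKM). In all 4 the glucose library was nearer to the control than to the library labelled sh-METTL3. The higher one was Tlr4, the receptor for bacterial lipopolysaccharide, at 0.127, 2.48 and 1.32 FPKM. Of 25 interferon signalling genes 6 were lower, with Irf7 at 54.2, 6.45 and 31.6 FPKM and Stat2 at 17.8, 5.86 and 16.1 FPKM. The interferon gamma receptor chain Ifngr1 stood at 38.2, 77.2 and 67.9 FPKM, a log2 ratio of 0.89.

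Of 11 chemokine genes 9 were lower and 0 higher, with the lowest median of the lists tested, -2.58. The FPKM filter left these 11 from 21 chemokine genes. Without the filter the median was -0.60 and no longer the lowest, as that of antigen presentation genes was -1.71. Ccl2, which draws monocytes, had 236, 27.6 and 134 FPKM, with a count-share ratio of 0.119 (interval 0.114 to 0.124). Ccl7 was at 26.2, 0.610 and 19.4 FPKM, and the neutrophil attractant Cxcl1 at 125, 20.8 and 69.3 FPKM. Cxcl5 had its highest level in the glucose library, at 7.89, 2.27 and 27.4 FPKM. Complement was represented by 8 genes, of which 2 were lower, C3 at 41.5, 4.47 and 141 FPKM and the regulator clusterin (Clu) at 24.2, 10.3 and 15.6 FPKM.

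Promoter letters were also searched for these groups. The interferon-stimulated response element, GAAANNGAAA on either strand, was in 3.67% of the 7993 genes, in 5 of 20 antigen presentation genes with a promoter (25.0%), in 10 of 18 sensor genes (55.6%) and in 2 of 22 interferon signalling genes (9.09%). Of those 10 sensors 5 were lower. Ifih1, Ddx58, Myd88 and Oas1c hold it and lay within 2-fold, as did Eif2ak2, the RNA-activated kinase, at 0.87. An NF-kB site (GGGA, any base, then TTTCC, on either strand) was in 0.488% of genes, in 1 of 6 chemokine genes (Cxcl1) and in 3 of 23 genes of the NF-kB list. Those 3 were Nfkbia, the inhibitor that NF-kB induces, at 208, 22.1 and 55.0 FPKM, and Nfkb2 (-0.95) and Cyld (0.37), which lay within 2-fold. Nfkbia does not stand for its list: among all 28 tested NF-kB genes, 7.14% passed 2-fold upwards and 7.14% downwards. The middle log2 ratio of that list was 0.225, or -0.09 after centring by length. Other motifs were searched in other lists. The sterol regulatory element (TCACNCCAC) was in 1.31% of genes, in 1 of 21 cholesterol genes and in 1 of 20 fatty acid synthesis genes. The AP-1 site (TGANTCA) was in 5.74% of genes, in 1 of 25 immediate early genes and in 0 of 19 MAP kinase feedback genes. Examples of the interferon-stimulated and NF-kB motifs are printed in capitals.
B2m, chr2:122147522-122147581, plus strand: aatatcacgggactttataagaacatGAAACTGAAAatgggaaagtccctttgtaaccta
H2-T23, chr17:36032792-36032851, minus strand: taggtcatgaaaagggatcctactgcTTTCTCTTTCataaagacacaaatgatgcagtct
Oas1g, chr5:120887614-120887673, minus strand: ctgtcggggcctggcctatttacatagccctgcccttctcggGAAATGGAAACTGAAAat
Nfkbia, chr12:55492648-55492707, minus strand: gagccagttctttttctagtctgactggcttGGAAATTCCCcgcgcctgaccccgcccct
Cxcl1, chr5:90891145-90891204, plus strand: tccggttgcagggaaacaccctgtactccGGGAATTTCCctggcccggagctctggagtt

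Of 11 interleukin-6 family genes 3 were higher and 2 lower. Cntf, ciliary neurotrophic factor, had the highest log2 ratio of the genes named by rank, 4.79, with 0.783, 51.9 and 2.91 FPKM and 70 against 4646 counts, a count-share ratio of 67.2 (interval 53.04 to 86.29). Its locus lies inside a second annotated gene called Zfp91 on the same strand, and the main Zfp91 gene next to it had 10.8, 70.3 and 19.8 FPKM, so reads of a transcript that runs through both cannot be told apart from Cntf reads. The shared receptor chain Il6st had 10.2, 46.0 and 39.8 FPKM and the ligand Lif 1.75, 5.01 and 5.07 FPKM. The feedback inhibitor Socs3 was lower at 23.1, 10.4 and 8.48 FPKM.

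Among translation genes the cytosolic ribosomal proteins were lower together, whereas the share of lower genes in the other translation lists was between 8.33% and 12.8%, near the 9.86% of all tested genes. Of 60 cytosolic ribosomal protein genes 57 were lower and 0 higher, within a narrow band from -2.23 to -0.76 and with a median of -1.33. These genes are short, and the median was -1.05 after centring within length bins and -0.55 after quantile normalization. Rpl38 was the lowest, at 541, 123 and 235 FPKM, and Rpl15 the highest, at 174, 110 and 104 FPKM. Mitochondrial ribosomal proteins had 6 lower and 1 higher of 55, with a median of -0.55 (-0.35 after centring by length). Nuclear genes of the respiratory chain had 3 lower of 57 and a median of -0.50 (-0.18 after centring by length).

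Host genes of small nucleolar RNAs, noncoding transcripts spliced to release guides for ribosomal RNA modification, had a lower median than the ribosomal proteins. Of 14 tested 11 were lower and 0 higher, and the median was -1.78 (-1.49 after centring by length). Snhg12 had 39.2, 3.56 and 10.5 FPKM, Zfas1 90.9, 12.6 and 35.3 FPKM, and Gas5 134, 31.9 and 45.1 FPKM. Each was lowest in the library labelled sh-METTL3 with the glucose library next. Small RNAs lie inside several of these hosts on the same strand. Ribosome biogenesis factors as a group stood at the median gene (0.03), with 1 higher and 3 lower of 35, the nucleolar chaperone Npm1 among the lower at 373, 176 and 181 FPKM and the ribosomal DNA factor Ubtf higher at 8.01, 20.1 and 13.2 FPKM.

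Among 39 translation initiation genes 5 were lower and 1 higher, and the opposing pair were both inhibitors of the cap-binding factor. Eif4ebp1 had 143, 43.9 and 72.9 FPKM, while Eif4ebp2 had 7.29, 17.95 and 17.98 FPKM. Of 24 aminoacyl-tRNA synthetases 2 were lower. Lars2, the mitochondrial leucine enzyme, was at 93.4, 4.54 and 4.83 FPKM, far from the rest, which ran from -1.03 to 0.16; in the same 2 libraries CT010467 was low, and whether the 2 loci share reads was not tested.

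Genes of the amino acid response driven by ATF4 had 10 lower and 3 higher of 34. The lower ones included the stress factor Ddit3 (64.4, 12.3 and 25.5 FPKM), Nupr1 (58.6, 9.68 and 27.8 FPKM) and the hormone Fgf21 (6.90, 0.619 and 2.48 FPKM). Higher were the secreted glycoprotein Stc2 (0.348, 11.7 and 4.41 FPKM), the glutamine transporter Slc38a2 (12.0, 36.2 and 19.6 FPKM) and Atf3 (6.72, 16.8 and 25.2 FPKM). Growth arrest genes of the GADD45 family were lower, Gadd45b at 197, 28.5 and 42.3 FPKM and Gadd45a at 34.3, 7.55 and 26.1 FPKM. In the p53 and cell cycle inhibitor list as a whole 10 of 37 were lower and 5 higher. Txnip, the glucose-responsive inhibitor of thioredoxin, had 314, 78.8 and 291 FPKM, so its glucose library level was near the control.

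Transcription factors of the nephron lineage were higher as a group. Of 15 tested 8 were higher and 0 lower, and the median was 1.13 (0.99 after centring by length). Pax2, which specifies the nephric duct and is switched off as podocytes mature, had 7.07, 42.5 and 12.2 FPKM, with a count-share ratio of 6.12 (interval 5.89 to 6.35). Sall1, a factor of nephron progenitors, was at 0.750, 5.94 and 2.86 FPKM, and Tfcp2l1, a factor of the collecting duct, at 6.40, 23.8 and 15.5 FPKM. Pax8, a partner of Pax2 in kidney development that is also in the tubular marker list, had 13.0, 33.2 and 30.1 FPKM. For Pax2, Foxc1 (1.74, 6.58 and 1.44 FPKM) and Hoxa10 (4.87, 12.8 and 4.26 FPKM) the level in the glucose library was much nearer to the control.

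Immediate early genes, which answer growth signals within minutes, had 15 higher and 1 lower of 32. Their median was 0.25 (0.52 after centring by length), and 0.11 over the 25 genes with a mean of at least 5 FPKM. Egr1 was at 35.5, 158 and 56.7 FPKM, Egr2 at 0.174, 9.79 and 0.353 FPKM, Egr3 at 0.0240, 4.16 and 0.0587 FPKM and Fosb at 4.29, 29.5 and 0.698 FPKM. Those 4 were high in the library labelled sh-METTL3 alone. Egr2 and Egr3 passed the FPKM filter only through that library, so their place among the 15 higher genes was set by the filter. The slower Kruppel-like factors were high in both virus libraries, Klf6 at 13.7, 46.6 and 35.5 FPKM and Klf9 at 2.55, 10.6 and 8.09 FPKM, whereas Klf4 was lower at 6.41, 2.31 and 9.58 FPKM. Of 22 genes of MAP kinase feedback 5 were higher and 4 lower. The EGF receptor inhibitor Errfi1 (6.50, 48.6 and 24.5 FPKM) and the ERK phosphatase Dusp5 (3.13, 24.3 and 14.2 FPKM) led the first, and Etv4 (8.77, 1.52 and 4.19 FPKM) and Dusp7 (12.4, 4.45 and 4.24 FPKM) the second.

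Of 29 growth factor and receptor genes 7 were higher and 7 lower. The 3 highest were receptors, Nrp1 (0.454, 7.37 and 2.79 FPKM), Met, the receptor of hepatocyte growth factor (4.38, 23.1 and 13.8 FPKM), and Erbb2 (1.98, 10.03 and 7.51 FPKM). The 3 lowest were secreted, Fgf21, Igfbp2 (31.4, 5.69 and 22.3 FPKM) and Vegfa, which podocytes supply to the glomerular endothelium (20.5, 6.65 and 17.4 FPKM). Roles did not divide the list fully, since the ligand Pdgfb (1.41) was higher and the receptor Fgfr1 (-1.28) lower. In the Notch pathway 4 of 19 were higher and 2 lower. The receptor Notch2 had 3.85, 30.6 and 22.9 FPKM, with a count-share ratio of 8.08 (interval 7.80 to 8.38), its activating protease Adam10 5.95, 20.6 and 13.3 FPKM, and the ligand Jag2 3.97, 0.7996 and 3.00 FPKM. In the Wnt pathway 4 of 27 were higher, led by the receptor Fzd6 at 1.51, 17.2 and 7.95 FPKM, and 1 was lower, the receptor Fzd7 at 16.8, 7.61 and 10.3 FPKM.

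Histone lysine modifiers were higher more often than the background, with 10 higher and 0 lower of 36 and a median of 0.50, but these genes are long, and the median was 0.18 after centring by length. Kmt2e had 2.90, 16.2 and 6.36 FPKM, the acetyltransferase Ep300 1.98, 11.1 and 7.20 FPKM and the methyltransferase Setd1b 0.571, 4.01 and 2.34 FPKM. Splicing factors stayed near the median gene (-0.03), with 2 higher and 3 lower of 48. Son, a scaffold of nuclear speckles, stood apart at 2.45, 17.7 and 12.9 FPKM.

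Adhesion and junction lists held more higher than lower members, as did long genes in general. After centring by length the median went from 0.30 to 0.18 for focal adhesion, from 0.27 to -0.04 for integrin and from 0.54 to 0.41 for junction genes. Of 49 focal adhesion and actin genes 8 were higher and 1 lower. The atypical GTPase Rhou was at 2.67, 28.8 and 12.7 FPKM, the integrin adaptor Tns1 at 3.00, 26.6 and 12.2 FPKM and the docking protein Bcar1 at 10.8, 62.9 and 55.7 FPKM, while Rnd1, which loosens adhesions, was at 21.5, 4.12 and 19.3 FPKM. Of 13 integrin genes the kinase adaptor Ilk (9.83, 38.8 and 33.8 FPKM) and Itga1 (0.379, 3.45 and 0.928 FPKM) were higher and Itga5 (29.1, 14.5 and 26.2 FPKM) lower. Of 21 junction genes 5 were higher and 0 lower, led by the kidney cadherin Cdh6 at 2.04, 16.4 and 5.53 FPKM and Cdh3 at 8.07, 31.1 and 20.9 FPKM.

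The basement membrane list had 4 higher and 2 lower of 15, with a median of 0.43 that became 0.03 after centring by length. Dystroglycan (Dag1), the laminin receptor of the podocyte foot, had 14.2, 84.1 and 43.8 FPKM, and nidogen Nid2 1.16, 6.80 and 2.02 FPKM. Laminin chain Lamb3 (11.5, 2.38 and 7.92 FPKM) and fibulin Fbln2 (88.4, 23.3 and 67.5 FPKM) were lower. Collagens and their enzymes had 0 higher and 2 lower of 16 and a median of 0.02, the 2 being the collagen chaperone Serpinh1 (513, 269 and 258 FPKM) and the lysyl hydroxylase Plod3 (36.2, 18 and 21.6 FPKM). The matrix protease Adamts1 was at 4.603, 64.4 and 21.6 FPKM, and the protease inhibitor Timp1 at 62.6, 13.1 and 27.9 FPKM. Of 26 semaphorin and ephrin genes 7 were higher and 2 lower, the latter being the ephrins Efna3 (5.18, 0.239 and 2.70 FPKM) and Efnb1 (7.46, 1.76 and 3.28 FPKM), the second a slit diaphragm component.

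Transport genes included the water channel Aqp1, a marker of the proximal tubule, at 2.29, 36.9 and 3.42 FPKM, with a count-share ratio of 16.3 (interval 14.9 to 17.9). Beside it the potassium channel Kcnj16 had 0.503, 10.1 and 5.23 FPKM and the scaffold Slc9a3r1 9.51, 40.7 and 42.8 FPKM; in all 7 of 25 transport genes were higher and 2 lower. A pair of retinoid enzymes went opposite ways: Dhrs3, which reduces retinal, had 3.80, 34.5 and 7.96 FPKM, and Aldh1a1, which oxidises it to retinoic acid, 22.3, 0.979 and 20.9 FPKM. For Aldh1a1 the glucose library was near the control, and for Dhrs3 it lay between the other 2 libraries. Of 45 mitosis genes, with a median of 0.45 (0.29 after centring by length), 9 were higher and 0 lower, led by the spindle protein Aspm (0.928, 6.10 and 3.28 FPKM), the motor Kif11 (7.81, 28.8 and 12.1 FPKM) and the proliferation marker Mki67 (21.5, 69.5 and 25.1 FPKM). Of 43 DNA replication genes 2 were higher and 0 lower.

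The m6A lists were compared next. Each deposited list gives peaks with the authors' fold enrichment, the ratio of pulled-down to input RNA, from 2 pull-down and 2 input samples, and has no value per replicate, so the ratios below carry no error. A control and a sh-METTL3 peak were paired when they lay on 1 strand, shared at least 1 bp and each was the other's largest overlap, which gave 17027 pairs. Their median fold enrichment was 6.56 in the control and 6.24 in the sh-METTL3 list. The median log2 ratio was -0.00, with quartiles of -0.41 and 0.39. Fold enrichment is a ratio within each condition, and no value here fixes its scale between conditions. A difference in total m6A shared by all peaks therefore cannot be read from these ratios. By 2-fold or more, 1251 pairs (7.35%) were higher and 1368 (8.03%) lower. Over the pairs the ranks of the 2 fold enrichments had a Spearman rho of 0.772, a description, since neighbouring peaks share libraries.

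By place, the 9433 pairs in 3' untranslated regions had a median log2 ratio of -0.04, with 5.19% higher and 7.24% lower. The 2478 pairs in 5' untranslated regions had 0.08, with 11.6% higher and 8.88% lower, and the 3288 pairs in coding exons 0.05, with 7.79% and 6.90%. Spread was widest for the 414 intron pairs, of which 14.5% were higher and 11.1% lower. All of these medians lie well inside the quartiles over all pairs. Ranked by control fold enrichment, the lowest of 5 equal bins of pairs had medians of 2.13 and 2.58 and the highest 17.2 and 12.5, an order that the ranking by control values itself favours. When both peaks had an adjusted p under 0.05, the same place and a reciprocal overlap of at least 50%, the medians were -0.04, 0.08 and 0.03 in the same order.

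**Figure D4:**
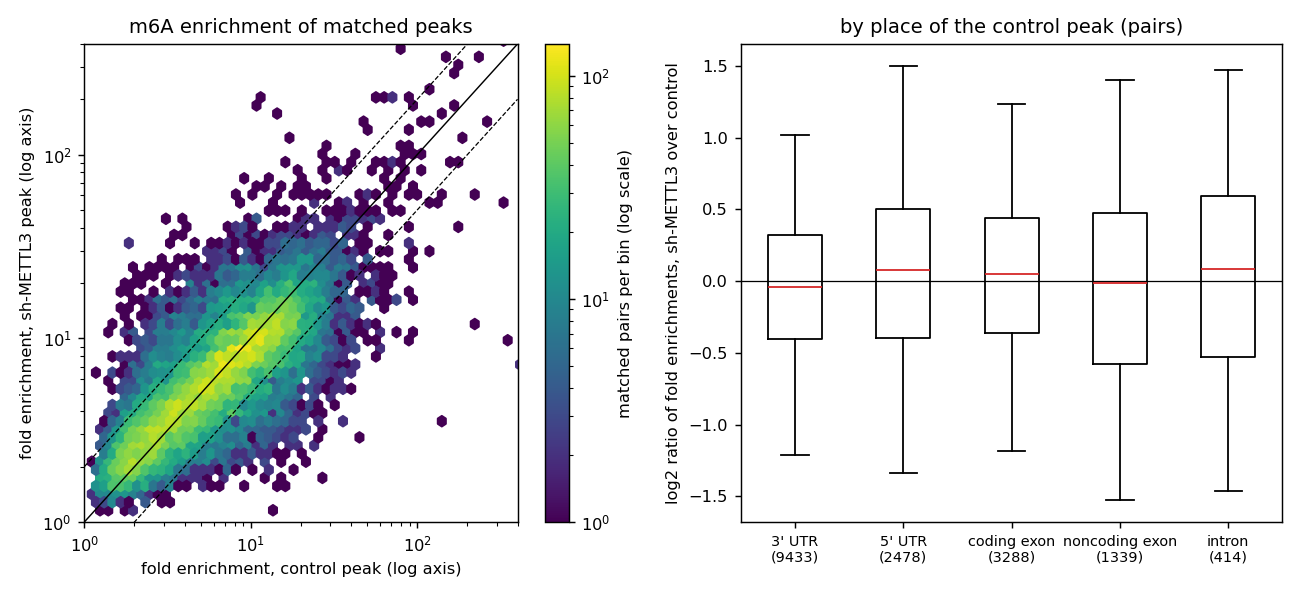
Left, fold enrichment of 17027 matched m6A peaks in the control list (x axis, log scale) against the sh-METTL3 list (y axis, log scale), coloured by pairs per bin, with lines at equality and 2-fold. Right, log2 ratio of the 2 fold enrichments by place of the control peak (box, quartiles; red line, median; whiskers, 5th to 95th percentile); every median lies between -0.04 and 0.08.

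Peaks without any overlap were weaker and shorter. The 3574 peaks of the control list alone had a median fold enrichment of 4.31 and a median span of 181 bases, against 6.37 and 600 for those found in both lists. The 5149 peaks of the sh-METTL3 list alone had 3.38 and 211 bases. Their adjusted p was under 0.05 in 50.4% and 54.1%, against 90.7% and 92.2% of overlapping peaks. In the glucose list 46.4% of the first and 56.8% of the second kind had an overlapping peak; that list shares the virus with the sh-METTL3 list.

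Several of the strongest mitochondrial peaks of the control list had no overlapping peak in the sh-METTL3 list. The control list had 20 peaks on the mitochondrial genome with a median fold enrichment of 9.54 and up to 158, and the sh-METTL3 list 9 with a median of 3.62 and up to 9.36, while the glucose list had 15 with up to 18.4. Among peaks of the control list alone, the 5 with the highest fold enrichment were mitochondrial: mt-Nd4 (158), 2 peaks of mt-Atp8 (121 and 120), mt-Co2 (89.5) and mt-Atp6 (79.4). These genes encode subunits of complex I, ATP synthase and cytochrome oxidase, and their RNA in control and sh-METTL3-labelled libraries was 942 and 2208 FPKM for mt-Co2 and 1878 and 2086 FPKM for mt-Atp6. The matched peak of mt-Nd4 had fold enrichments of 139 and 3.62 over stretches that overlap only in part, the lowest ratio of the peaks named by rank. In the authors' deposited table the overlapping entry had a log2 fold change of -0.53 at an adjusted p of 0.00107. The other 8 matched mitochondrial peaks did not share this: 5 had a ratio above 1, such as mt-Nd6 with 5.26 and 7.28 and mt-Nd2 with 7.87 and 7.90, and 3 a ratio below 1, such as mt-Nd5 with 11.2 and 7.80.

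Of the 10 pairs with the lowest ratios, most others lay in 3' untranslated regions, while those of the actin-binding protein gene Triobp (25.8 and 3.22) and of Pimreg (20.1 and 2.61) lay in 5' untranslated regions. The 3' peak of the GTPase Rhoa (chr9:108337754-108337934, plus strand) had 24.9 and 2.79, that of the RNA polymerase II subunit Polr2j (chr5:136122391-136122947, plus strand) 15.3 and 1.59, and that of the phosphatase Ppp1cc 15.2 and 2.24. The RNA of these 3 genes was within 2-fold. For Rhoa the authors' deposited table gave a log2 fold change of -0.90 at an adjusted p of 0.0891, so its difference in fold enrichment was not past 0.05 there.

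High ratios were found for Cul7, a ubiquitin ligase scaffold, with 9.51 and 76.0 over the same 541 bases of its 3' untranslated region (chr17:46661667-46662207, plus strand), and for Ska3, a kinetochore protein, with 3.28 and 33.3 over the same 150 bases. In the authors' deposited table Cul7 had a log2 fold change of 0.49 at an adjusted p of 0.00479, and Ska3 one of 1.23 at 0.189. For Rtf1, Acsl3 and Gvin1 the paired peaks differed several-fold in span, since a listed peak can run over introns and join neighbours, so their ratios compare different stretches. For Acsl3 the signs even differed, with fold enrichments of 1.98 and 18.7 beside a log2 fold change of -0.84 in the authors' deposited table (adjusted p 3.63e-06).

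Peaks of several genes with large RNA differences had close fold enrichments in both lists. The longer 3' peak of Rhou had 14.3 and 14.7 and that of Errfi1 7.74 and 7.39. The 3' peak of Thbs1 had 6.55 and 6.16, that of Dhrs3 5.74 and 5.62 and that of Adamts1 10.5 and 8.46. The RNA of all these genes was at least 2-fold higher. Among lower genes, the 3' peak of Gadd45b had 10.3 and 8.42 and that of Hspa1b 5.83 and 6.08. Klhdc8a differed more, with 41.1 and 8.78 at its 5' end. S1pr1, a sphingosine 1-phosphate receptor, had 24.9 and 7.28 at its 3' end, from RNA of 1.78 and 0.335 FPKM, and the authors' deposited table gave that region a log2 fold change of -1.89 at an adjusted p of 0.116. Smad3, a TGF-beta signal carrier, had 12.1 and 8.72 in its longer 3' peak, and the authors' deposited table gave that region -0.14 at an adjusted p of 0.0324. Over 13404 pairs in tested genes, the log2 ratio of fold enrichment and the log2 RNA ratio had a Spearman rho of -0.02, a description over pairs that share genes.

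The authors' deposited table of differential peaks is the only replicated value. It lists 3518 entries with an adjusted p up to 0.204, of which 1527 (43.4%) were higher and 480 (13.6%) lower in the sh-METTL3 samples at an adjusted p under 0.05. Overlapping entries occur, and merging them left 1962 regions of 2007. Most differences were small: in the authors' deposited table the median size was 0.573 (log2) among the higher and 0.525 among the lower entries, and 178 and 76 of them reached 1. How that table was scaled between conditions is not given, so its balance of higher and lower entries does not measure total m6A.

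By gene list, the authors' deposited table had 23 higher and 3 lower entries in splicing factor genes, 20 and 2 in focal adhesion and actin genes, 14 and 2 in translation initiation genes, 13 and 0 in ribosome biogenesis genes and 9 and 0 in laminin and basement membrane genes. Over all tested genes the counts were 1490 and 447, so higher entries outnumbered lower ones generally. Not every list leaned this way. Nucleic acid sensor genes had 1 higher and 3 lower entries, semaphorin and ephrin genes 1 and 3, TGF-beta and BMP genes 5 and 5, and immediate early genes 6 and 4. Overlapping entries were counted separately here. Examples from the authors' deposited table are Hnrnpu, a nuclear RNA scaffold, at 0.502 (adjusted p 3.98e-50) and Pabpc1, the poly(A)-binding protein, at 1.2 (adjusted p 1e-112), with log2 RNA ratios of -0.11 and -0.88. The actin motor gene Myh9 had entries of 0.675, 0.695 and 0.673 in the authors' deposited table, the first at an adjusted p of 1.58e-63.

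Chaperone messengers differed among themselves. In the authors' deposited table the Hspa5 entry in the 3' untranslated region stood at -0.373 (adjusted p 3.16e-83), and its fold enrichments were 12.7 and 8.45. Entries of Hsp90ab1 (0.636, adjusted p 1e-268), Hsp90b1 (0.572, adjusted p 1.58e-14), Hspd1 (0.403, adjusted p 3.02e-07) and Hyou1 (0.856, adjusted p 0.00245) in the authors' deposited table were higher, though the RNA of all 4 lay below the median gene. In the class I genes the authors' deposited table had H2-D1 at 0.438 (adjusted p 5.01e-17) and B2m at 0.218 (adjusted p 7.08e-06), but H2-Q6 at -0.277 (adjusted p 1.95e-05). Within both groups, entries of either sign thus fell on genes with lower RNA, but higher entries were the more common. Cytosolic chaperones had 6 higher and 0 lower entries, ER folding genes 10 and 3, and antigen presentation genes 8 and 2. All tested genes together had 1490 and 447.

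Entries also fell on the m6A machinery itself. In the authors' deposited table Wtap had -0.64 in an exon (adjusted p 4.37e-07) and Rbm15 -0.736 in its 5' untranslated region (adjusted p 0.0339), while Pcif1 had 0.596 (adjusted p 0.0155). The eraser Alkbh5 had 0.637 (adjusted p 0.00933) and the reader Igf2bp1 0.854 (adjusted p 0.000339) in the authors' deposited table. The ribosomal protein genes with negative entries in the authors' deposited table were Rps12 at -5.45 (adjusted p 2.69e-09) and Rpl15 at -2.37 (adjusted p 7.94e-61), beside 5 higher entries in that list.

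RNA differences were then set against carrying a mark at all. Of the tested genes 8186 had a peak in the control list, of which 11.6% were at least 2-fold higher and 5.40% lower in RNA, and 3405 had none, of which 3.23% were higher and 20.6% lower. Genes without a peak were shorter, so protein-coding genes were split into 5 bins of length. In the shortest bin the median log2 RNA ratio was -0.26 for 1327 genes with a peak and -0.57 for 627 without. In the middle bin the medians were 0.09 (1617 genes) and -0.16 (337 genes), and in the longest 0.45 (1765 genes) and 0.19 (189 genes). The ratio was higher for genes with a peak in all 5 bins, and also in all 5 bins of mean FPKM. These are values of 2 libraries, and peaks are found more readily in longer genes.

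**Figure D5:**
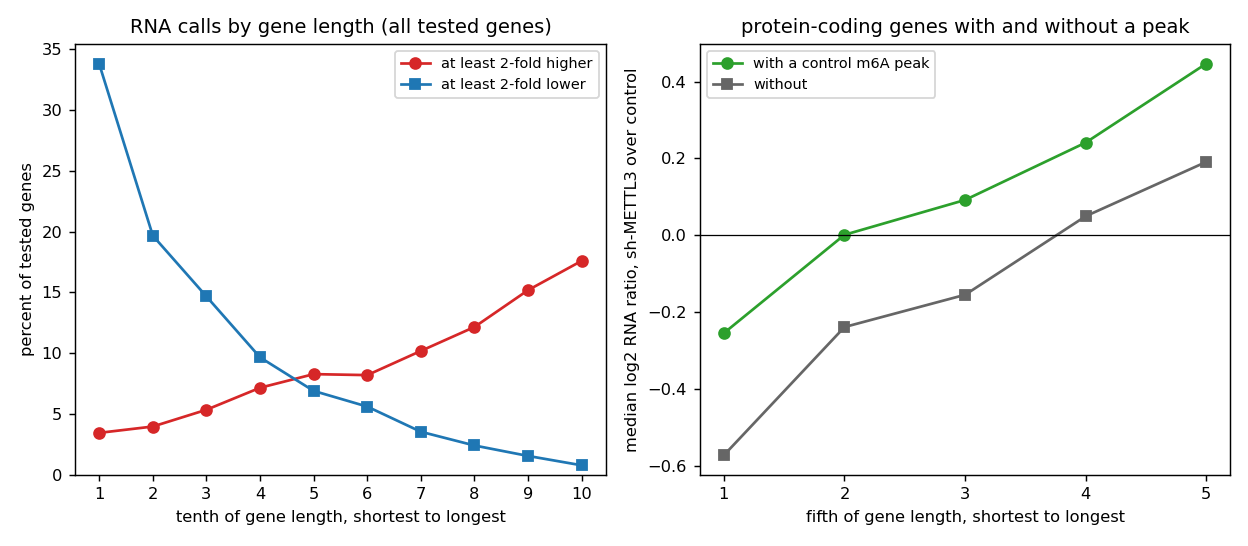
Left, percent of tested genes at least 2-fold higher (red) or lower (blue) in 10 bins of gene length; the lower share goes from 33.8% in the shortest bin to 0.78% in the longest. Right, median log2 RNA ratio of protein-coding genes with (green) and without (grey) a control m6A peak in 5 bins of length; the green points lie above the grey in all 5.

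Gene lists differed in how many members carried the mark. In the control list 70.6% of tested genes had a peak. All 36 histone modifiers and all 32 immediate early genes had one, as did 93.3% of nephron transcription factors, groups with many higher genes. Of ribosomal proteins 36.7% had one, of small nucleolar RNA hosts 42.9% and of chemokines 36.4%, groups with many lower genes. Other groups with many lower genes carried it more often than tested genes in general: ATF4 response genes at 91.2%, ER folding genes at 89.7%, antigen presentation genes at 83.3%, nucleic acid sensors at 80.0% and cytosolic chaperones at 77.1%. The directions of genes with entries in the authors' deposited table were mixed: of 1250 tested genes with a higher entry 11% were higher and 4.80% lower in RNA, and of 421 with a lower entry 17.8% and 6.89%.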

How the data were processed

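The RNA table holds whole-number counts and FPKM per gene, as deposited by the authors, with 1 column per condition. The deposited peak lists give the authors' fold enrichment, a ratio of m6A pull-down over input, and log10 p and adjusted p, with 1 list per condition. The deposited differential-peak table gives the authors' log2 fold change, p-value and adjusted p-value. Per the submitters' processing notes, HOMER 4.10, edgeR 4.1, StringTie 2.1.2, HISAT2 2.0.4 and fastp 0.19.4 were used, in roles not stated, and which program called peaks is not given in the sources. The notes name build GRCh38, but gene positions in the files are those of mouse GRCm38. Total counts were 54282720, 53655982 and 52807701 in the control, sh-METTL3-labelled and glucose libraries.

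Genes with a mean of at least 1 FPKM over the 3 libraries were kept. The log2 ratio of FPKM with a pseudocount of 1 was centred on its median gene. With 1 library per condition no p-value was computed; 95% exact binomial intervals of count shares were. Peak starts were counted from 0, and 1 was added. Gene length was inferred from counts and FPKM and used only for ranks. The scripts were tested on simulated data. Python 3.11.15 with numpy 2.4.6, pandas 2.3.3, scipy 1.17.1 and matplotlib 3.10.9 was used. Whether the 2 replicates came from separate cultures is not given, so the authors' p-values may measure technical spread.

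Genes named are the 25 highest and 25 lowest ratios at a mean of at least 5 FPKM, up to 3 from each end of each of 60 gene lists, all m6A writers, Mettl3, S1pr1 and Smad3. Peaks named are the 10 highest and 10 lowest ratios of fold enrichment, the 10 strongest peaks of each list alone, and peaks of named genes. Other genes with values were chosen after their values were seen. Members and lists were chosen with earlier results of these data known. Alternatives were other pseudocounts, filters, scalings, overlaps and thresholds, and protein-coding genes alone, the last added after seeing the data. Some genes are not reported here.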

Additional observations from a re-analysis of the deposited data

How the results depend on the processing

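No paired analysis was possible because the RNA table has 1 column and the peak files 1 list per condition, so leaving out a replicate was not possible either. Of 356 named genes 224 were past 2-fold, and of 59 list medians 7 were. None of these changed sign under 5 settings. Smaller list medians did: after centring within length bins the NF-kB list went from 0.225 to -0.09 and the RNA decay list from 0.24 to -0.02. Under quantile normalization the proteasome list went from -0.16 to 0.02. Centring within length bins moved 41 named genes and 2 list medians across 2-fold, quantile normalization 40 and 2, a pseudocount of 0.1 moved 27 and 1, no centring 23 and 1, and median of ratios on counts 5 and 0. Genes at least 2-fold higher numbered 1742 with a pseudocount of 0.1 and 679 at a mean of at least 5 FPKM, where fewer genes were tested. Lower genes numbered 648 under that filter and 719 with centring within length bins. Without centring 1324 were higher and 928 lower, and without the filter 1357 and 1034.

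With a reciprocal overlap of at least 50%, 56.9% of control and 52.0% of sh-METTL3 peaks were shared, and 750 pairs were higher and 881 lower. With an adjusted p under 0.05 in both lists 87.0% and 82.5% were shared. In genes with RNA within 1.5-fold the median log2 ratio of fold enrichment was 0.0088, with 479 pairs higher and 480 lower, of fewer pairs tested. At an adjusted p under 0.01 the authors' deposited table had 281 lower entries. With single RNA libraries, depth bounds counting error only, and no value here measures variation between cultures.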
